A study of Punica granatum with 8 samples.

Results

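In pomegranate hairy roots, 39 genes had a lower level in each of the 5 libraries made from roots overexpressing an R2R3 Myb transcription factor than in any of the 3 libraries of empty vector (EV) roots. They were chosen on the deposited normalized counts (the counts of a library divided by 1 size factor for that library) by 3 conditions. The mean over the 8 libraries had to be at least 10, the lowest EV library had to be at least 1.5 times the highest overexpression library, and the lowest EV library had to be above 0. The table lists 18831 genes, of which 14869 had a mean of at least 10, so that the 39 are 0.262% of the genes that could be chosen. The same rule turned around, with the lowest overexpression library at least 1.5 times the highest EV library, chose 90 genes, or 0.605%. The 2 directions are not on equal terms here or below, since the mean is taken over 3 EV and 5 overexpression libraries. A gene low in overexpression thus needs a higher level in its high group to reach a mean of 10. Because the EV and overexpression values chose the 39 genes, these values are given as a description and nothing about the constructs is tested with them. The choice did not use the difference between the 2 overexpression groups, though genes high in only 1 of these groups were left out by it.

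The RNA came from young hairy roots of pomegranate (Punica granatum, cultivar PG116-17) whose green fluorescence marked them as transformed, kept for 3 months in a greenhouse. Of the 8 libraries, 3 came from roots transformed with PgMyb308-like behind the constitutive 35S promoter of cauliflower mosaic virus, and 3 came from EV roots with the same vector without the Myb. The paper describes each EV and PgMyb308-like line as the product of its own transformation with Agrobacterium rhizogenes. The other 2 libraries are labelled line 1712, a genotype given as overexpressing PgMyb308 from another sequence record than PgMyb308-like. The text of the paper does not describe line 1712, and the labels do not say whether its 2 libraries come from separate transformations, so that p-values measure the spread between libraries. All 8 libraries share the cultivar, the tissue and the age.

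R2R3 Myb proteins are a large family of plant transcription factors that bind DNA through a pair of Myb repeats. Members of subgroup S4, to which the study assigns PgMyb308-like, carry a repressor motif in the C-terminal part and are known in several plants for repressing genes of phenylpropanoid and lignin synthesis. The study reports replaced residues in this motif of PgMyb308-like, and more total lignin in roots overexpressing it. It proposes that S4 members can raise or lower lignin synthesis, depending on the protein and the plant. Hairy roots are transgenic roots that grow where A. rhizogenes has entered a plant, and they are used in pomegranate as a root tissue in which a gene can be overexpressed without raising a whole transgenic plant.

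Transcripts were measured by TranSeq, which reads the 3′ ends of transcripts, so that the count of a gene does not grow with its length. The libraries held 1263321 to 3976951 counts, and the 10 most abundant genes took 3.65% to 6.80% of them. On the first principal component of log2(normalized count + 1) over the 14869 genes, which held 37.4% of the variance, PgMyb308-like replicate 1 stood apart at 112.0. The other 7 libraries lay between -61.6 and 42.4 there, with EV and overexpression libraries mixed. On the second component (15.3% of the variance) EV replicates 1 to 3 lay at 11.8, 49.5 and 43.8. The PgMyb308-like libraries lay at 20.8, -44.9 and -45.8 on it, and those of line 1712 at -17.4 and -17.7. In bulk roots a lower count can come from fewer cells of a type or from less RNA per cell, and these cannot be told apart. The annotation used here (RefSeq, assembly ASM765513v2) gives identifiers, positions and gene types and no product names, so that no function is given for any of the 39 genes, the levels of the transgenes were not analysed here, and root cell type markers were not checked.

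Over the 15957 genes that passed the filter on low counts of edgeR, all 39 among them, the median log2 fold change of both overexpression groups against EV was -0.002, and over the 39 it was -2.33, with a range from -7.97 to -1.01. Against EV the median of the 39 was -2.27 with PgMyb308-like and -2.07 in line 1712, and these values share the EV libraries. Of the 14869 genes, 343 (2.31%) had their lowest EV library above their highest overexpression library, and the 39 are those of the 343 with the widest separation. In the opposite direction 470 genes (3.16%) did not overlap. A trait of the 3 EV lines and an effect of the constructs cannot be told apart here, since both overexpression groups were set against the same EV libraries.

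**Figure D1:**
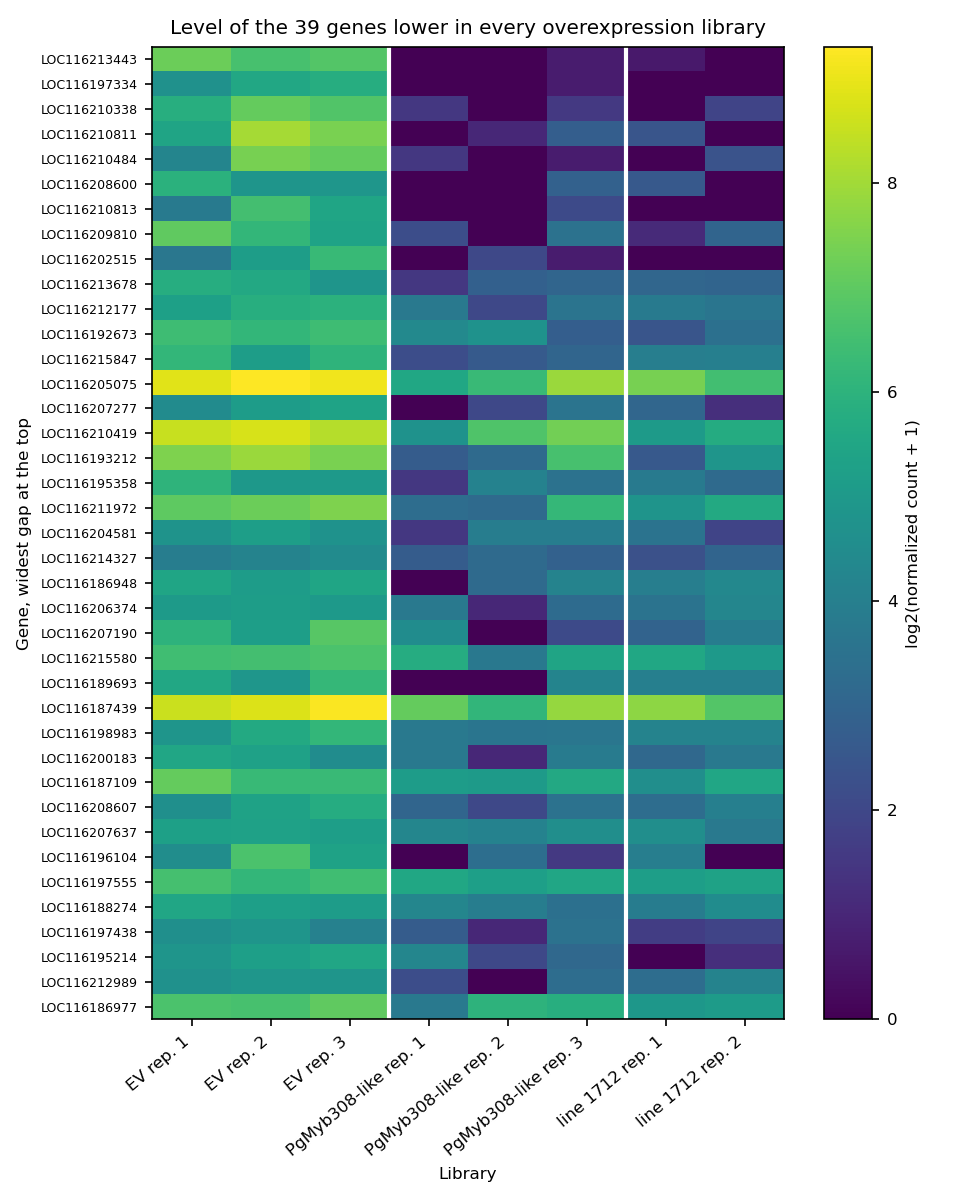
Level of each of the 39 genes (rows, widest gap between EV and overexpression at the top) in each of the 8 libraries (columns), as log2(normalized count + 1) on the colour scale, with white lines between the groups. Every EV column is lighter than every overexpression column of its row, which the choice of genes fixes, and the darkest cells, at 0 counts, number 10 in each of PgMyb308-like replicates 1 and 2, 0 in replicate 3, and 6 and 7 in the line 1712 columns.

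The gap between the groups, taken as the ratio of the lowest EV to the highest overexpression library, differed widely among the 39. It was largest for LOC116213443, at 148, its median was 1.77, and 26 genes lay under 2. Only 10 genes had a ratio of at least 3, of which 7 reached 4 and 3 reached 10. The 90 genes of the opposite direction had a median ratio of 2.13, with 4 of them at 0 in every EV library, and 48 of them reached 2, 23 reached 3 and 16 reached 4. At the threshold itself, LOC116186977 (1.5075) and LOC116212989 (1.5081) lay just inside, and LOC116207089 (1.4983) and LOC116193228 (1.4922) lay just outside. The mean of at least 10 left out 39 further genes that met the fold, among them LOC116213447, whose mean was 9.96 and whose ratio was 4.58.

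Every library bounds this choice, and the number of genes moved when 1 was left out. Without EV replicate 1, 2 or 3 the rule chose 80, 72 or 92 genes, which held 36, 36 and 37 of the 39. Without PgMyb308-like replicate 3 it chose 74, and without line 1712 replicate 1 or 2 it chose 67 or 68, each time with all 39 among them. Leaving out PgMyb308-like replicate 1, the library that stands apart, gave 54 genes with all 39 among them. A gene that meets the fold still meets it when an overexpression library is left out, so that keeping all 39 is largely fixed by the rule. PgMyb308-like replicate 3 held the highest overexpression value of 17 of the 39 genes, more than any of the other overexpression libraries (8 for line 1712 replicate 2, 6 for PgMyb308-like replicate 2, and 4 each for PgMyb308-like replicate 1 and line 1712 replicate 1). It was also the only overexpression library in which none of the 39 was at 0 counts, where PgMyb308-like replicates 1 and 2 had 10 genes each at 0 and line 1712 replicates 1 and 2 had 6 and 7. With 3484260 counts it was the deepest PgMyb308-like library, though line 1712 replicate 1 was deeper. The shallowest library of all was PgMyb308-like replicate 1, with 1263321 counts. How often each library was highest or at 0 counts over all genes is not given here, so that these counts are not read as a trait of the 39.

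At one end of the range, 5 of the 39 genes had at most 3 counts in every overexpression library, so that they were near the limit of detection there. The widest gap was that of LOC116213443, a protein-coding gene on chromosome 7 from 6867901 to 6877779 (coordinates here and below are those of ASM765513v2). Its normalized counts in EV replicates 1 to 3 were 146, 96.0 and 112, and they were 0, 0 and 0.650 in the PgMyb308-like libraries and 0.560 and 0 in line 1712. In raw counts this is 373 over the EV libraries and 2 over the 5 overexpression libraries, where 643.0 would have been counted at the EV level, a 321-fold lower count (95% exact binomial interval 88.4 to 2664, which reflects counting error alone). Such intervals, here and below, leave out the spread between libraries and the choice of the genes on this same gap, and are too narrow for either. No overexpression library came near the EV range, and the EV libraries lay within 1.52 times of each other.

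LOC116197334 is a long non-coding RNA gene on chromosome 1 from 41454003 to 41455576. Its normalized counts were 25.3, 46.9 and 55.3 in EV, 0, 0 and 0.650 with PgMyb308-like and 0 in both line 1712 libraries. A single count was thus seen over the 5 overexpression libraries, against 145 in EV. Set against the floor of 3 counts over the group, it was at least 37.4-fold lower in line 1712 than in EV. LOC116202515, a protein-coding gene on chromosome 4 from 39256012 to 39257081, had normalized counts of 12, 35.2 and 75.3 in EV, 0, 3.10 and 0.650 with PgMyb308-like and 0 in both line 1712 libraries. Its EV lines differed among themselves by 6.26 times, and EV replicate 1, with 10 counts, stood closest to the overexpression libraries. It was at least 39.2-fold lower in line 1712 than in EV, again against 3 counts over the group.

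The other 2 genes near the limit of detection, LOC116210338 and LOC116210484, are neighbours and belong to a run of 4 consecutive annotated genes on chromosome 6 that were all among the 39. The run spans 8951 bases, from 27004938 to 27013888, and holds in order LOC116210338 (27004938 to 27006211), LOC116210484 (27007640 to 27008897), LOC116210813 (27010043 to 27011204) and LOC116210811 (27012235 to 27013888). The genes are all annotated as protein-coding and are separated by 1030 to 1428 bases. The counts of the 4 genes together were 108, 620 and 671 in EV, 2, 1 and 18 with PgMyb308-like and 8 and 5 in line 1712. In normalized counts these sums were 129.9, 661 and 464 in EV, 3.64, 1.03 and 11.7 with PgMyb308-like and 4.52 and 6.98 in line 1712. The lowest EV library thus held over 10 times the highest overexpression library.

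LOC116210338 had normalized counts of 56.5, 138 and 108 in EV, against 1.82, 0 and 1.95 with PgMyb308-like and 0 and 2.79 in line 1712. LOC116210484 had 18, 168 and 138 in EV, 1.82, 0 and 0.650 with PgMyb308-like, and 0 and 4.19 in line 1712. In both genes EV replicate 1 was the lowest EV library, and that it lay above the overexpression libraries is fixed by the choice. In LOC116210484 it held 15 counts, against 3 in line 1712 replicate 2. LOC116210813 stood at 13.2, 91.7 and 42.8 in EV and at 0, 0 and 3.25 with PgMyb308-like, and it was at 0 in both line 1712 libraries. LOC116210811, the most abundant of the run, stood at 42.1, 263 and 174 in EV, at 0, 1.03 and 5.85 with PgMyb308-like and at 4.52 and 0 in line 1712. The EV lines were not alike in this run, and EV replicate 2 exceeded EV replicate 1 by 2.43 times in LOC116210338, 9.34 times in LOC116210484, 6.93 times in LOC116210813 and 6.26 times in LOC116210811. Over the 5 overexpression libraries the raw counts were below those at the EV level by 95.7-fold for LOC116210338 (95% exact binomial interval 43.5 to 263), 129-fold for LOC116210484 (54.6 to 398), 54.8-fold for LOC116210813 (23.0 to 171) and 51.1-fold for LOC116210811 (32.0 to 87.0), with counting error only. With the spread between libraries the interval is wider. For LOC116210811 edgeR's 95% interval of the log2 fold change of both groups against EV ran from -7.49 to -3.94.

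The difference was not seen in the nearest listed gene on either side of the run. On the left, LOC116209838 had a log2 fold change of 0.63 for both overexpression groups against EV, and it was the nearest annotated gene. On the right, the nearest gene, LOC116210810, is not in the count table, and the next one, LOC116210814, had a log2 fold change of 0.72. The gene after it, LOC116210809, moved the other way, at a log2 fold change of 3.36, though edgeR's adjusted p was 0.443. The genes of the run have similar lengths and lie close together. Whether reads could be shared among near-identical copies was not tested, since no sequence was used here, and values of single genes of the run are uncertain to that extent.

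**Figure D2:**
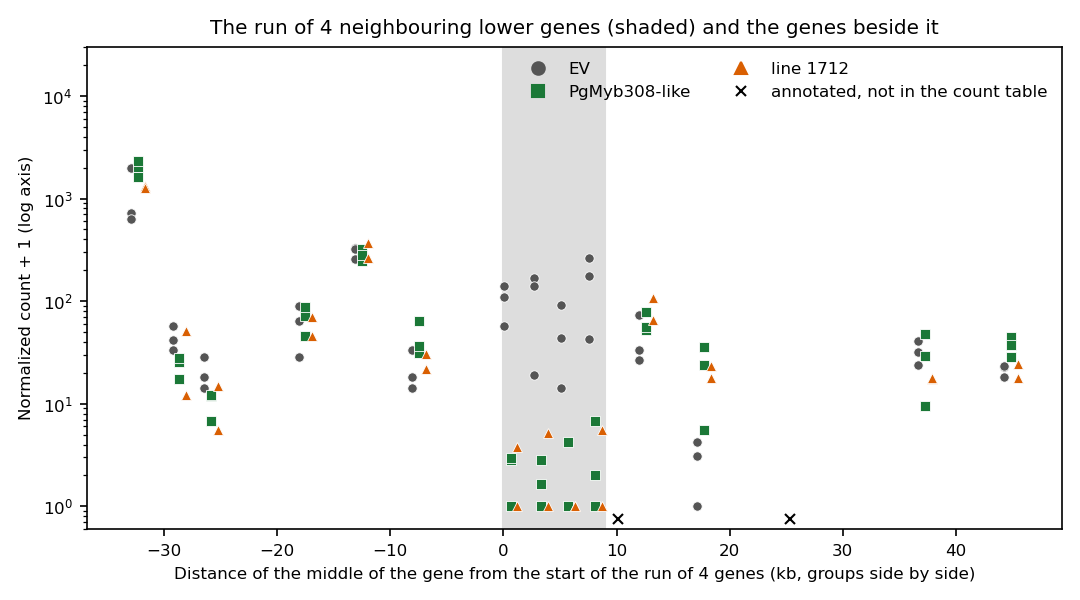
Normalized count + 1 (log axis) of each gene of the run on chromosome 6 and of the genes beside it, against the distance in kb of the middle of the gene from the start of the run, with 1 point per library and the groups drawn side by side. Within the shaded run the EV points stand above all overexpression points, and in the listed gene on either side of it they do not. Crosses mark annotated genes that are not in the count table.

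A further 3 genes with a ratio of at least 3 kept some counts in the overexpression lines. LOC116208600, on chromosome 5 from 11639217 to 11639873, had normalized counts of 60.1, 27.7 and 29.0 in EV, 0, 0 and 6.50 with PgMyb308-like and 5.08 and 0 in line 1712. LOC116209810, on chromosome 6 from 14169777 to 14184863, had 129.9, 70.4 and 41.5 in EV, 3.64, 0 and 10.4 with PgMyb308-like and 1.13 and 6.98 in line 1712. Each was detected in 1 or more libraries of both overexpression groups, at a level that changed from line to line. LOC116213678, on chromosome 7 from 4430510 to 4431538, differed from these in being detected in every overexpression library, at 1.82, 6.19 and 7.15 with PgMyb308-like and 7.34 and 6.98 in line 1712, against 54.1, 48.0 and 27.6 in EV. Its raw counts were 6.22-fold below the EV level over the 5 overexpression libraries (95% exact binomial interval 4.27 to 9.27, counting error only). The overexpression libraries other than PgMyb308-like replicate 1 lay within a narrow band in this gene.

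Between ratios of 2 and 3 lay 3 genes, all protein-coding. LOC116212177, on chromosome 6 from 14481570 to 14481938, had normalized counts of 38.5, 55.5 and 62.9 in EV, 12.7, 3.10 and 11.1 with PgMyb308-like and 13 and 11.2 in line 1712. LOC116192673, on chromosome 1 from 42579231 to 42581340, had 84.2, 71.4 and 84.3 in EV, 20, 25.8 and 5.85 with PgMyb308-like and 4.52 and 9.77 in line 1712. The EV libraries of LOC116192673 were close to each other, while 2 of the PgMyb308-like libraries stood above both line 1712 libraries and the third lay between them. LOC116215847, described further under the comparison of the overexpression groups, is the third of these genes.

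**Figure D3:**
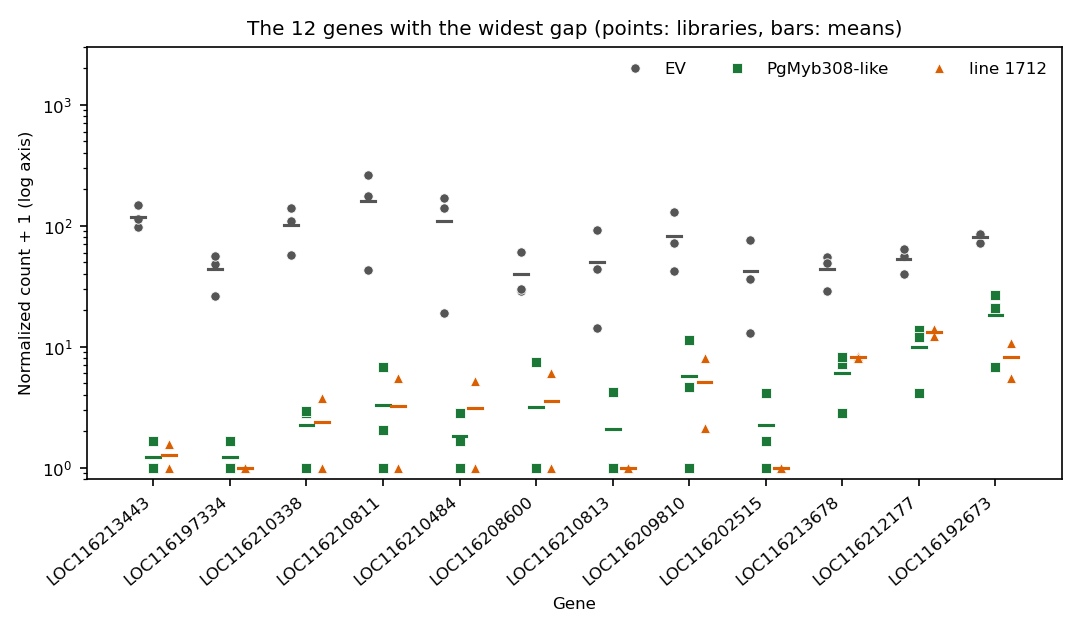
Normalized count + 1 (log axis) of the 12 genes with the widest gap, with 1 point per library, horizontal bars at the group means, and EV, PgMyb308-like and line 1712 side by side. The EV points of each gene stand above its overexpression points, as the choice fixes, and at 1 on this axis lie libraries with no count, which reach from LOC116213443 to LOC116202515 and are absent in the last 3 genes.

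Of the 8 genes with the highest mean in EV, 6 had ratios under 2 and kept counts in every overexpression library. They are the 5 described here and LOC116186977, which is described with the genes next to the threshold. LOC116205075, a long non-coding RNA gene on chromosome 4 from 37503966 to 37505292, was the most abundant of the 39, at 468, 632 and 555 normalized counts in EV. It was at 45.5, 78.4 and 238 with PgMyb308-like and at 169 and 89.3 in line 1712. The means were 552 ± 82.2 (SD, n = 3) in EV, 121 ± 103 (SD, n = 3) with PgMyb308-like and 129 ± 56.3 (SD, n = 2) in line 1712, so that the spread among the PgMyb308-like lines was nearly as large as their mean.

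LOC116187439, on chromosome 8 from 23128989 to 23130508, had 375, 445 and 601 normalized counts in EV, 136, 69.2 and 229 with PgMyb308-like and 212 and 113 in line 1712. LOC116210419, on chromosome 6 from 22693447 to 22695553, had 363, 432 and 306 in EV, 25.5, 107 and 159.8 with PgMyb308-like and 32.8 and 51.6 in line 1712. In both genes PgMyb308-like replicate 3 was the overexpression library nearest to EV. LOC116193212, on chromosome 1 from 30937580 to 30941312, showed this most clearly, with 179, 238 and 173 in EV, 5.46, 8.26 and 94.9 with PgMyb308-like and 5.08 and 27.9 in line 1712. The highest of its overexpression libraries was 18.7 times the lowest, the largest such ratio among the 23 genes with counts in all 5, where the median was 4.95. LOC116211972, a long non-coding RNA gene on chromosome 6 from 20588333 to 20588953, had 128, 147 and 179 in EV, 9.09, 8.26 and 71.5 with PgMyb308-like and 27.1 and 48.9 in line 1712. It too was highest among the overexpression libraries in PgMyb308-like replicate 3.

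Some of the genes with a small gap had the steadiest levels, and the following 3 were picked after their values were seen. LOC116197555, on chromosome 2, had normalized counts of 92.6, 70.4 and 86.3 in EV, 45.5, 37.1 and 44.8 with PgMyb308-like and 36.1 and 40.5 in line 1712. Its overexpression libraries differed by 1.26 times at most, the least of the 23 genes. LOC116207637, on chromosome 5, had 38.5, 39.5 and 36.6 in EV, 18.2, 16.5 and 23.4 with PgMyb308-like and 23.2 and 12.6 in line 1712. Its EV libraries differed by 1.08 times, the least of the 39. LOC116198983, on chromosome 3, had 27.7, 49.0 and 70.5 in EV, where it varied, and 12.7, 11.3 and 11.7 with PgMyb308-like and 16.9 and 16.8 in line 1712, where it hardly did within a group. In 23 of the 39 genes the EV libraries lay within 2-fold of each other.

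Closest to the threshold were LOC116186977, with 102, 94.9 and 131 normalized counts in EV, 12.7, 63.0 and 55.9 with PgMyb308-like and 29.4 and 33.5 in line 1712, and LOC116212989, with 25.3, 28.8 and 27.6 in EV, 3.64, 0 and 9.10 with PgMyb308-like and 9.04 and 16.8 in line 1712. Both were steady in EV, and a single overexpression library sets each ratio. The gene with the lowest mean of the 39, LOC116214327, had 14.4, 17.1 and 21.4 normalized counts in EV and 3.95 to 8.26 in the overexpression libraries, so that its difference rests on 3 to 31 counts a library.

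The other 14 genes had ratios of 1.96 or less. In 5 of them at least 1 overexpression library was at 0 counts. These were LOC116207277, LOC116186948, LOC116207190, LOC116189693 and LOC116196104, whose EV means ran from 32.4 to 72.3 normalized counts. LOC116189693 was at 0 in PgMyb308-like replicates 1 and 2 and at 17.5, 15.2 and 15.3 in the other 3 overexpression libraries, against 46.9, 28.8 and 73.2 in EV. The rest, LOC116195358, LOC116204581, LOC116206374, LOC116215580, LOC116200183, LOC116187109, LOC116208607, LOC116188274 and LOC116197438, were detected in all 8 libraries. Among these LOC116187109 was the most abundant, at 137, 75.7 and 78.8 normalized counts in EV against 23.2 to 48.1 in the overexpression libraries, and LOC116197438 the least, at 24.1, 27.7 and 15.9 against 1.03 to 10.4.

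The 39 genes lie on all 8 chromosomes, with 8 on chromosome 6, 6 on chromosome 1 and 2 to 5 on each of the others. As a share of the genes with a mean of at least 10, this is 0.580% on chromosome 6 and 0.106% to 0.343% elsewhere, and 4 of the 8 genes of chromosome 6 are those of the run. Long non-coding RNA genes made up 4 of the 39 (10.3%), against 313 of the 14868 annotated genes with that mean (2.11%). They are LOC116197334, LOC116205075, LOC116211972 and LOC116208607, which lie on chromosomes 1, 4, 6 and 5. The median length of the locus was 2107 bases for the 39 and 3217 bases for all genes with that mean. These shares and lengths are descriptions of the genes chosen, with no test.

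Apart from the run on chromosome 6, no 2 of the 39 genes were direct neighbours. Their 78 flanking positions are taken 6 times by another of the 39, within the run, and 25 times by genes not listed in the count table. The 38 flanking genes that could be tested had a median log2 fold change of -0.16 for both overexpression groups against EV. Of them 26 were below 0 and 12 above, where 50.2% of all genes tested were below 0. Below -1 lay 3 of the 38, where 4.16% of all genes tested did, and no test was run on these counts. These 3 were LOC116195356 beside LOC116195358 (-1.93), LOC116195200 beside LOC116195214 (-1.43) and LOC116205068 beside LOC116205075 (-1.29), with adjusted p from 0.355 to 0.789 in edgeR, so that none was called. LOC116195214 and LOC116195200 overlap by 18 bases, and LOC116206374 overlaps the unlisted LOC116206376 by 207 bases. Because genes were counted on their extended 3′ ends, and because no strand was used here, reads of such neighbours cannot be told apart here, and the values of these genes are uncertain to that extent.

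With edgeR's quasi-likelihood test on the raw counts (called where the Benjamini-Hochberg adjusted p was under 0.05 and the log2 fold change above 1 in size), few of the 39 genes passed singly against EV. Because the rule used these contrasts, the counts are given beside the background and nothing is read from them. With PgMyb308-like 1 of the 39 was called lower, LOC116213443, against 0.00627% of the 15957 genes, and without PgMyb308-like replicate 3 or EV replicate 3 the count was 10 or 0. In line 1712 the same gene was the only one called lower, against 0.00627% of the 15957 genes. It was no longer called without either line 1712 library or without any 1 of the EV libraries. Without PgMyb308-like replicate 3 the count was 3. With both overexpression groups against EV 3 of the 39 were called lower (LOC116213443, LOC116197334 and LOC116210338), against 0.0188% of the 15957 genes. That count was 16 without PgMyb308-like replicate 3, 5 when PgMyb308-like replicate 1 was left out, and 1 when replicate 2 was, without either line 1712 library, or without EV replicate 2 or 3. DESeq2 called 20 of the 39 lower with PgMyb308-like, 12 in line 1712 and 23 with both groups. Of the 15957 genes it called 0.320%, 0.132% and 0.269% lower in these comparisons.

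The comparison between the overexpression groups asks whether genes chosen for being low in all 5 libraries were lower under one Myb construct than under the other. This contrast was not itself used to choose them, but the rule held both groups below the same EV level. Genes high in only 1 of the groups were left out, so that a small difference here is partly fixed by the choice. The 39 genes had a median log2 fold change of -0.13 between PgMyb308-like and line 1712, with 21 genes below 0 and 18 above, and the median over all genes tested was 0.005. No gene passed edgeR's test between the groups, among the 39 or among all 15957 (0%), and at an unadjusted p under 0.05 there were 2 of the 39 (5.13%) against 3.55% of all genes. DESeq2 called 12 genes between the groups (0.0752%) and none of the 39, of which 3 had an unadjusted p under 0.05 (7.69%, against 4.04% of all genes). The libraries of the 2 groups did not overlap in 3 of the 39 genes (7.69%) and in 16.3% of all 14869 genes. As the rule caps both groups, and 16 of the 39 genes had an overexpression library at 0 counts, nothing is read from these shares. The sign of the median turned to 0.11, 0.15 and 0.17 when line 1712 replicate 1, PgMyb308-like replicate 1 or PgMyb308-like replicate 2 was left out, and it was -0.66 without PgMyb308-like replicate 3.

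The gene with the largest difference between the groups was LOC116195214, on chromosome 1 from 38123709 to 38129226. Its normalized counts were 18.2, 3.10 and 7.80 with PgMyb308-like and 0 and 1.40 in line 1712, against 27.7, 37.3 and 44.9 in EV. The lowest PgMyb308-like library lay above both line 1712 libraries, and all 5 below EV. The log2 fold change of 4.02 (standard error 1.26, 95% interval 1.19 to 6.84) was not called (edgeR, adjusted p = 0.998), and as line 1712 held 1 count in its 2 libraries the size depends on how zeros are treated. The overlap with LOC116195200 noted above touches this gene.

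LOC116215847, on chromosome 8 from 6099980 to 6102084, went the opposite way and was picked after its values were seen. It had normalized counts of 3.64, 5.16 and 7.15 with PgMyb308-like and 14.7 and 15.3 in line 1712, against 71.0, 35.2 and 65.6 in EV. All 3 PgMyb308-like libraries lay below both line 1712 libraries. The log2 fold change was -1.43 (standard error 0.55, 95% interval -2.65 to -0.21), and it was not called (edgeR, adjusted p = 0.998). LOC116198983 also did not overlap, with its PgMyb308-like libraries below line 1712, and its log2 fold change was -0.52.

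For the other genes the interval says how far a difference between the constructs could go unseen. The 95% interval of the log2 fold change held 0 in 37 of the 39 genes, and its median width was 3.73. Only for LOC116197555, at 0.13 with an interval from -0.60 to 0.85, did the interval lie inside a 2-fold change in either direction. Of the 39 log2 fold changes, 13 were above 1 in size, a larger share than the 11.9% of all genes tested. As 16 of the 39 genes had at least 1 overexpression library at 0 counts, where the size depends on how zeros are treated, nothing is read from this share. Genes at or near 0 counts in both groups, such as LOC116197334, LOC116202515 and LOC116210813, had 0 to 5 counts over either group, so that no difference between the constructs was detectable at this depth. These results do not show that the constructs act alike on the 39 genes.

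**Figure D4:**
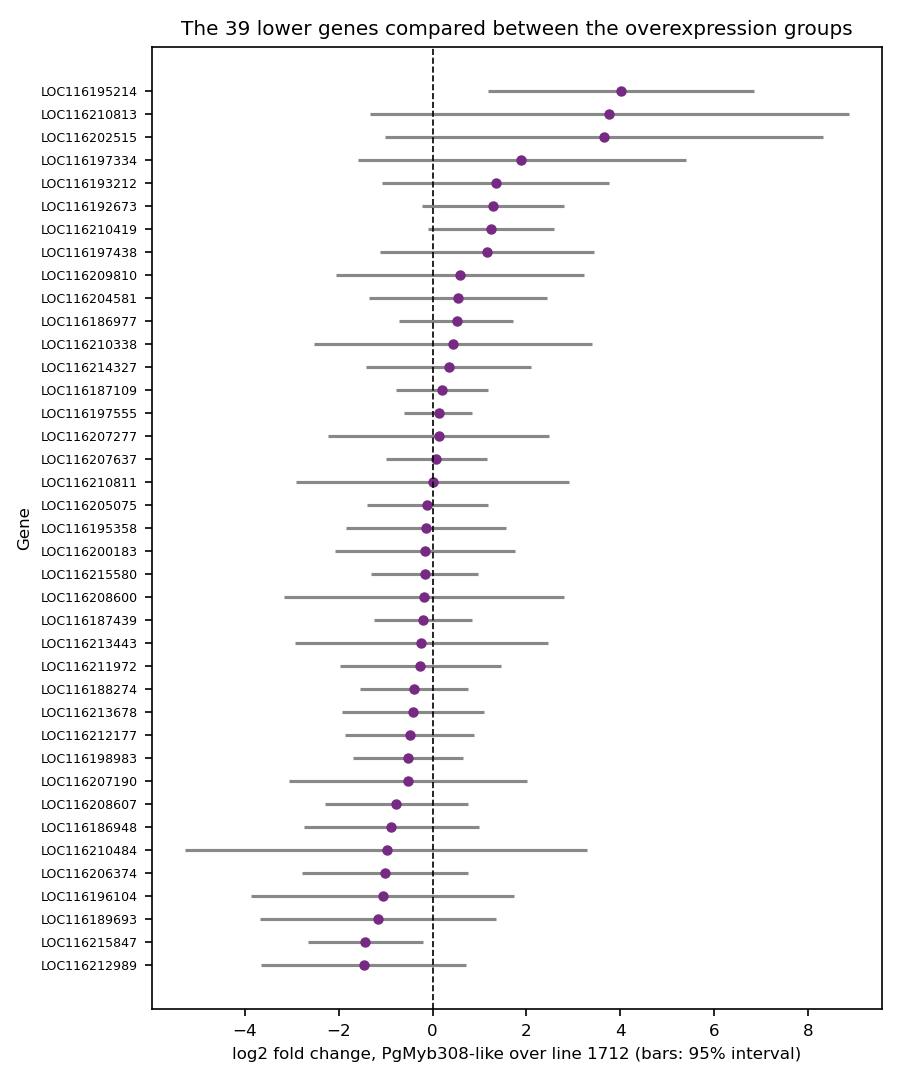
Log2 fold change of PgMyb308-like over line 1712 (points) with its 95% interval (bars) for each of the 39 genes, ordered by size, from edgeR's fit. Only the intervals of LOC116195214, at 4.02, and LOC116215847, at -1.43, leave out 0, and neither passed the test after adjustment. The 3 genes below LOC116195214 had no count in line 1712.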

How the data were processed

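TranSeq libraries of 8 hairy root samples were analysed (3 EV, 3 PgMyb308-like, 2 line 1712), grouped by the sample labels. Per the submitters' notes and the paper's methods, the authors trimmed reads with cutadapt, used STAR 2.4.2a for alignment and HTSeq 0.6.1p1 for counting on extended 3′ ends, and deposited the raw counts per gene. The notes also name bcl2fastq 2.17.1.14, DESeq and DESeq2 1.10.1. The other deposited table is a normalized signal, which the authors made as the counts divided by 1 size factor per library (largest difference 0.0072). No listed gene has a highest count under 6. Pairs of libraries of a group differed by 8.34 to 34.7 times counting noise, so that none was a copy of another. Positions are from RefSeq (ASM765513v2), in which 18820 of the 18831 genes were found by identifier.

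Genes were chosen on the normalized counts, and the members and lists were chosen with earlier results of these data known. Raw counts were filtered (edgeR 4.0.16, minimum count 10, minimum total count 15), normalized by TMM and tested with the quasi-likelihood test in R 4.3.3, all 8 libraries in 1 fit with 5 residual degrees of freedom, and p-values were adjusted over the 15957 genes. Standard errors were taken as the absolute log2 fold change over the square root of F. Intervals of raw counts are exact binomial at 95%, and the floor is 3 counts over a group. These intervals leave out the spread between libraries and the choice of the genes on this same gap. The procedure was tested on simulated data. Genes were named in the text by rule: the 12 with the largest ratio, the 8 with the highest EV mean, those next to the threshold, those called between the overexpression groups (none) with the 4 of largest absolute log2 fold change there, and those that neighbour each other. The other genes were named after their values were seen, to account for all 39. Planned lists by product name, protein signature, cell type marker and promoter motif were not used, as no table used here gives products or sequences. Alternatives were DESeq2 1.42.0, other size factors, library totals, no filter, other folds and minimum means, no fold change threshold, a replicate block and each library left out. Leaving out a whole overexpression group was chosen after seeing the data. Figures were drawn with matplotlib 3.10.9 with a pseudocount of 1.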

Additional observations from a re-analysis of the deposited data

How the results depend on the processing

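The rule chose 87 genes at the lower fold tried, 13 at a fold of 2, 10 at a fold of 3, 78 at a minimum mean of 1 and 10 at a minimum mean of 50, against 39. Leaving out a single library gave 49 to 92. Leaving out both line 1712 libraries gave 138 and leaving out the 3 PgMyb308-like libraries 225, 2 alternatives chosen after seeing the data. TMM-normalized values gave 39 genes (37 shared) and library totals 40 (36 shared). For PgMyb308-like against EV, 6 genes and 1 of the 39 were called by edgeR, 200 and 20 by DESeq2, 20 and 4 without a filter, and 0 to 129 and 0 to 10 with a library left out. For line 1712 against EV, 1 gene and 1 of the 39 became 79 and 12 with DESeq2, and 0 to 17 and 0 to 3 with a library left out. With both groups against EV, 6 genes and 3 of the 39 became 156 and 23 with DESeq2, 20 and 5 without a filter, and 1 to 78 and 1 to 16 with a library left out. Between the overexpression groups, 0 genes became 12 with DESeq2 and 0 to 4 with a library left out, with 0 of the 39 under every alternative. The median log2 fold change of the 39 ran from -3.0 to -2.05 with PgMyb308-like, from -2.36 to -2.04 in line 1712 and from -2.77 to -2.18 with both groups when a library was left out, and from -0.66 to 0.17 between the groups. The cause of these changes was not tested. Against EV no log2 fold change of the 39 turned its sign under the 12 alternatives, which the choice of genes largely fixes, and between the overexpression groups 43 of 468 did, in 22 genes.

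With the replicate number as a block, the called genes were 0 for PgMyb308-like against EV (0 of the 39), 0 for line 1712 against EV (0 of the 39), 1 for both groups against EV (1 of the 39) and 0 between the overexpression groups. Libraries with the same number in 2 groups correlated from -0.27 to 0.203 in their deviations from the group means, and those with different numbers from -0.394 to 0.394. As the deviations within a group sum to 0, which ties these values to each other, they do not decide whether the numbers pair the samples. With 1263321 to 3976951 counts a library, genes at 0 to 3 counts set the limit, since their fold changes depend on how zeros are treated. Near-identical copies, strand and overlap with neighbours were not resolved.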
